A study of Arabidopsis thaliana with 6 samples.

Results

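The plant tandem CCCH zinc finger genes TZF1 (ATCTH, AT2G25900), TZF2 (OZF1, AT2G19810), TZF3 (OZF2, AT4G29190), TZF4 (SOMNUS, AT1G03790), TZF5 (AT5G44260) and TZF6 (PEI1, AT5G07500) were followed in Arabidopsis thaliana root tips of the hsl2 mutant and of wild type. These are 6 of the 37336 genes counted. The genes were taken by locus, and the family was selected on the hsl2 over wild type differences already seen in these libraries. Its levels and fold changes in that contrast are therefore a description, and no p-value of a member is printed. Where a member is said to pass a threshold, nothing is read from it. Of the 6 genes, 4 passed the filter on low counts and belong to the 17989 genes tested, while TZF4 and TZF6 did not pass it.

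The hsl2 group had 3 libraries of the hsl2 mutant, which lacks normal function of the receptor-like kinase HSL2, and the wild type group had 3 libraries of the Col-0 accession, the ecotype recorded for both groups. The hsl2 allele is not given in the labels. All seedlings were 7 days old, grown on vertical agar plates without sucrose in days of 16 h of light and 8 h of dark, and only the last 0.5 mm of the primary root was taken. The question of the series was how loss of HSL2 affects the shedding of root cap cells. Total RNA of this piece mixes root cap, stem cell niche and dividing cells, so fewer cells of a type and less RNA per cell cannot be told apart.

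Tandem CCCH zinc finger proteins bind RNA through a pair of fingers, each of which holds a zinc ion with 3 cysteines and 1 histidine. The best-known animal member, tristetraprolin, binds AU-rich elements of messenger RNAs and speeds their decay. The plant proteins shown here carry an arginine-rich stretch before the fingers. In Arabidopsis they are found in processing bodies and stress granules, cytoplasmic granules of stored or decaying messenger RNA, and are known as regulators of hormone, light and stress responses. TZF1 is known from responses to gibberellin, abscisic acid and sugar, TZF2 and TZF3 from oxidative stress and abscisic acid responses, TZF4 as a repressor of light-dependent seed germination, TZF5 as a partner of TZF4 in that role, and TZF6 from embryo development.

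The fingers define the family, so their coding sequences are shown for all 6 genes. They come from the RefSeq annotation of the TAIR10.1 assembly, were looked up by locus and are exonic in each gene. The capitals mark the codons of the 6 cysteines and 2 histidines that hold zinc, in order along the coding strand.

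TZF1, chr2:11042222-11042374, plus strand: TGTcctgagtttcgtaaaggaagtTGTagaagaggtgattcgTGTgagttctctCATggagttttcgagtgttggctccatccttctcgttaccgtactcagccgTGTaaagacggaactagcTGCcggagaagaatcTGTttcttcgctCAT

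TZF2, chr2:8550788-8550940, plus strand: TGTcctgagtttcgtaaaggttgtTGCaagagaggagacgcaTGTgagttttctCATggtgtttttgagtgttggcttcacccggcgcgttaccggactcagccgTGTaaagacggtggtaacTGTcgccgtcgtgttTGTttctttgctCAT

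TZF3, chr4:14392779-14392931, minus strand: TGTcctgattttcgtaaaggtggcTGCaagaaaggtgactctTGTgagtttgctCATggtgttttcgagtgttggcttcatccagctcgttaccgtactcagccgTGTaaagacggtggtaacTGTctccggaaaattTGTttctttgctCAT

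TZF4, chr1:954970-955125, plus strand: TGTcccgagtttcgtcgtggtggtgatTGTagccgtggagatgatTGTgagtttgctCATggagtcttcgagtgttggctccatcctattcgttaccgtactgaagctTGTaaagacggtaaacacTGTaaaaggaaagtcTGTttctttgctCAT

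TZF5, chr5:17830649-17830804, minus strand: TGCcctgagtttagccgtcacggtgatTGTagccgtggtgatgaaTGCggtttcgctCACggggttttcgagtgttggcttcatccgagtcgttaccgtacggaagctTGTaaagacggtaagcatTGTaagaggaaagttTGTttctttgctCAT

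TZF6, chr5:2373007-2373159, plus strand: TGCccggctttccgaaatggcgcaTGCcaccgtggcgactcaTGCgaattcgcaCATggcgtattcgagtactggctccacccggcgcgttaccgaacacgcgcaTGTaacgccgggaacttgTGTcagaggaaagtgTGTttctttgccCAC

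TZF4 and TZF5 had 8 codons between the first 2 cysteines, and TZF1, TZF2, TZF3 and TZF6 had 7. All 6 had 16 codons between the fingers. Each coding region lay in 1 exon, and TZF1 alone of the 6 had another exon, upstream of the coding region. Over the finger windows TZF2 and TZF3 shared 87.6% of 153 bases and TZF4 and TZF5 84.6% of 156 bases. TZF1 shared 79.7% with TZF2 and 81.7% with TZF3. Only windows of the same length were compared, so TZF4 and TZF5 were compared with each other alone. Among TZF1, TZF2 and TZF3, TZF6 shared most with TZF3, 67.3%. In the reference 0 other loci overlapped any of the 6 genes.

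Of the 6 genes TZF1 had the most reads in all 6 libraries, and of the 4 tested it had the largest difference. In hsl2 libraries 1, 2 and 3 it was at 17.1, 17.5 and 21.5 CPM (counts per 1000000 of the library total after TMM scaling), and in wild type libraries 1, 2 and 3 at 67.2, 28.1 and 112 CPM. Every hsl2 library lay below every wild type library, with wild type 2 nearest to the mutant. The means were 18.7 ± 2.46 CPM in hsl2 and 69.0 ± 41.8 CPM in wild type (SD, n = 3 each). On the log2 scale hsl2 over wild type was -1.88 (standard error 0.39), or 0.271 times the wild type level, and 14 of the 17989 genes tested had a more negative fold change.

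The wild type libraries disagreed on TZF1 far more than the hsl2 libraries did. The highest wild type level was 3.97 times the lowest, against 1.26 times in hsl2, and the coefficient of variation was 13.1% in hsl2 and 60.6% in wild type. Over genes with a mean of at least 5 CPM the median coefficient of variation was 13.1% in hsl2 and 10.7% in wild type. Only 58 of those 14219 genes, TZF1 among them, varied as much between the wild type libraries. The counts behind TZF1 were 240, 346 and 329 in hsl2 and 1366, 457 and 1839 in wild type. What sets its spread in wild type was not tested. The biological coefficient of variation that edgeR estimated for TZF1 was 32.0%, against 15.0% for genes of its level.

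Among TZF1 to TZF6, TZF5 was next to TZF1 in level per transcript length, in hsl2 and in wild type. It was at 5.48, 7.74 and 8.57 CPM in hsl2 libraries 1 to 3 and at 12.3, 7.26 and 12.8 CPM in wild type libraries 1 to 3. The groups overlapped, since hsl2 2 and hsl2 3 lay above wild type 2. The means were 7.26 ± 1.60 CPM in hsl2 and 10.8 ± 3.06 CPM in wild type (SD, n = 3 each), a log2 fold change of -0.57 (standard error 0.25).

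TZF2, known for its part in oxidative stress tolerance, was at 3.91, 5.46 and 3.99 CPM in hsl2 libraries and at 6.54, 4.92 and 8.74 CPM in wild type libraries. Here too the groups overlapped, through hsl2 2 and wild type 2. Its log2 fold change was -0.59 (standard error 0.25). TZF3, the gene most like TZF2 in its fingers among those compared with it, was at 2.49, 4.40 and 4.45 CPM in hsl2 and 3.84, 3.69 and 4.37 CPM in wild type. Its lowest and its highest library were both hsl2, and its log2 fold change was -0.06 (standard error 0.26). Whether TZF3 differs from TZF2 in its response was not tested.

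**Figure D1:**
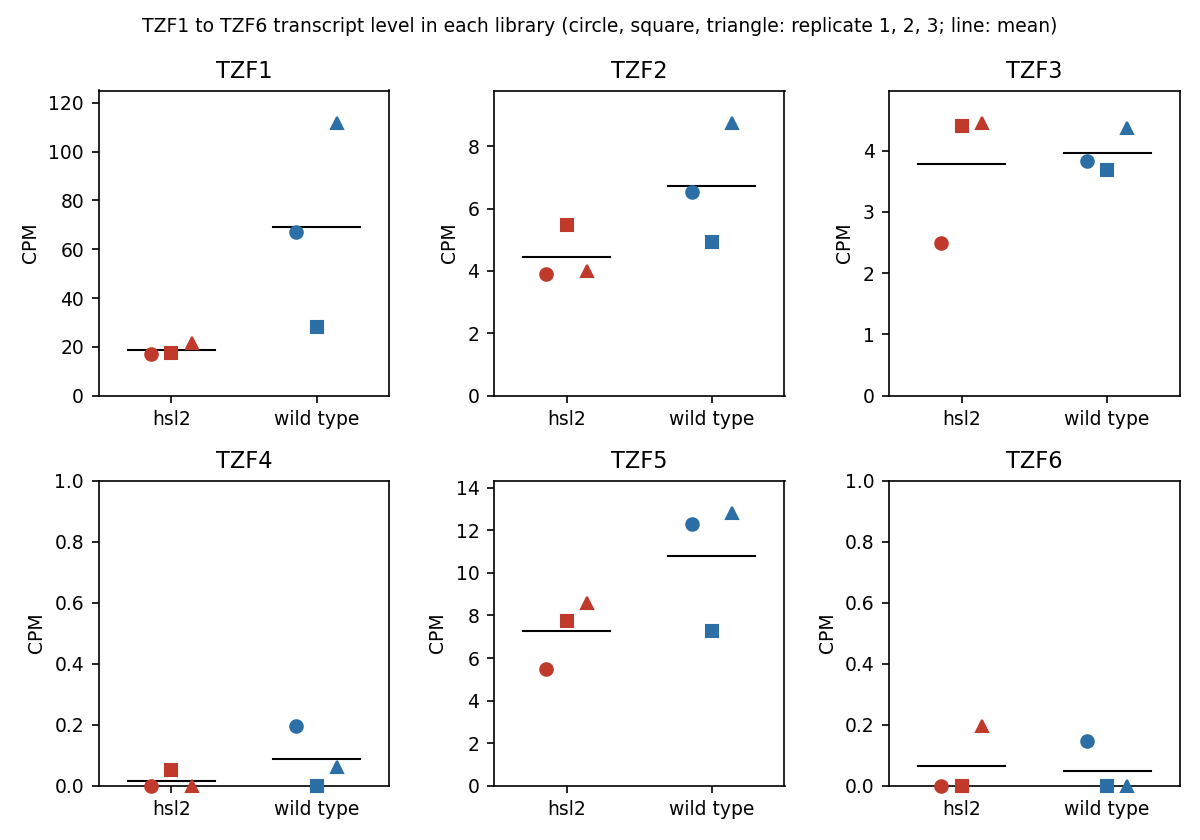
Transcript level of TZF1 to TZF6 in CPM, on a linear axis that starts at 0 in each panel, with hsl2 libraries on the left and wild type libraries on the right. Points are single libraries and the line is the mean of 3. TZF1 lies between 17.1 and 21.5 CPM in hsl2 and between 28.1 and 112 CPM in wild type, while the groups overlap in every other panel.

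TZF4 and TZF6, known from seeds and embryos, were hardly detected in root tips of either genotype. TZF4 had 0, 1 and 0 counts in hsl2 libraries and 4, 0 and 1 in wild type libraries. TZF6 had 0, 0 and 3 counts in hsl2 and 3, 0 and 0 in wild type. A count of 0 allows a level of up to 3 counts, which is 0.148 to 0.213 CPM in these libraries, so no difference was detectable at this depth.

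With edgeR's quasi-likelihood test 0 of the 4 tested members passed an adjusted p of 0.05, as did 0% of all genes tested. At an unadjusted p under 0.05 were 3 of the 4, TZF1, TZF2 and TZF5, and 2436 of all genes, or 13.5%. With DESeq2 on the same counts 1 of the 4 passed, TZF1, against 1.62% of all genes tested. TZF1 was also the 1 tested member whose hsl2 libraries all lay below all wild type libraries, which held for 9.44% of all genes tested. Since the family was picked with this contrast known, nothing is read from these counts.

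HSL2 itself (AT5G65710) was at 7.61, 9.76 and 9.81 CPM in hsl2 and 6.98, 8.61 and 7.22 CPM in wild type, with overlap, so its transcript level does not check the genotype labels. Over the 7 green tissue markers, such as the light-harvesting and Rubisco genes, the summed level was 91.4, 20.3 and 20.6 CPM in hsl2 libraries 1 to 3 and 12.4, 13.4 and 24.9 CPM in wild type libraries 1 to 3. Of the 6 tested, 5 had log2 fold changes above 0, with the smallest p for RBCS1A (2.11), LHCB1.1 (2.58) and LHCB1.3 (1.98). LHCB2.1 was the 1 of these 7 that was at 0 in a library, wild type 2. The 7 root hair markers summed to 52.6, 61.8 and 67.5 CPM in hsl2 and 30.8, 34.9 and 58.3 CPM in wild type. Their log2 fold changes were above 0 in 7 of 7 tested, with the smallest p for COBL9 (1.28), RSL4 (1.13) and PRP3 (1.04). The 10 root tip markers summed to 187, 243 and 259.6 CPM in hsl2 and 313, 313 and 245 CPM in wild type, with 9 of 9 tested below 0, and the stem cell niche gene WOX5 was at most at 0.854 CPM. In this list 3 of the 9 tested had an unadjusted p under 0.05, against 13.5% of all genes tested. With DESeq2 1 of the 9 passed, against 1.62%. An unadjusted p under 0.05 was also found for 4 of the 6 tested green tissue markers and 1 of the 7 root hair markers. In neither of those lists did a gene pass with DESeq2 (0 and 0). Of the 9 root tip markers, 2 had all hsl2 libraries below all wild type libraries, against 9.44% of all genes tested. RCPG, which encodes a root cap polygalacturonase, was at 15.2, 11.4 and 6.54 CPM in hsl2 and 39.6, 47.9 and 20.5 CPM in wild type, without overlap (log2 fold change -1.70, standard error 0.34). BRN2, which encodes a NAC factor of root cap maturation, had a log2 fold change of -0.65 (standard error 0.21), also without overlap, and FEZ, which encodes a NAC factor of root cap stem cells, had -0.57 (standard error 0.24). Library totals ran from 15051468 to 19353957 counts in hsl2 and from 15791819 to 20468890 in wild type. The part of these differences in the TZF values was not tested.

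Hsl2 1, the library with the highest green tissue marker sum, was the lowest of all 6 libraries in 8 of the 9 tested genes of the family TZF1 to TZF11, and in 30.0% of all genes tested, while it was the highest in 0 of the 9 and in 28.4% of all genes. Wild type 3, the wild type library with the highest root hair and green marker sums, was the highest in 4 of the 9 and in 13.2% of all genes. Without hsl2 1 the log2 fold change of TZF1 was -1.85, and without wild type 3 it was -1.35. Without both it was -1.30. For TZF2 the value was -0.53 without hsl2 1, -0.36 without wild type 3 and -0.27 without both. For TZF5 the values were -0.44, -0.43 and -0.28 in the same order. TZF3 turned to 0.13, 0.01 and 0.23. The most negative value of TZF1 over the alternatives tried, -2.26, came without wild type 2, the wild type library closest to hsl2 in its TZF1 level.

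**Figure D2:**
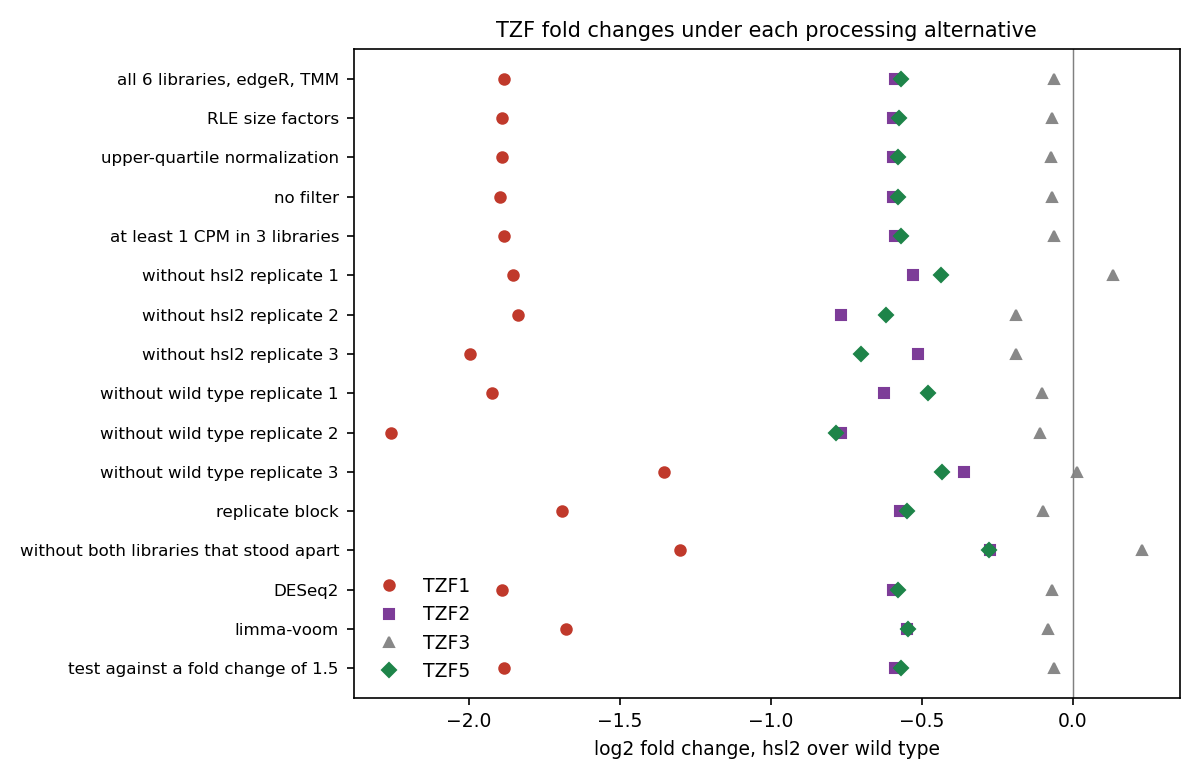
Log2 fold change of hsl2 over wild type (horizontal axis) for TZF1, TZF2, TZF3 and TZF5 under each way of processing the counts, 1 row per setting. TZF1 stays between -2.26 and -1.30, TZF2 and TZF5 stay below 0, and TZF3 lies on either side of 0.

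The other arginine-rich members of the family, TZF7 to TZF11, had smaller differences than TZF1, TZF2 and TZF5. All of them but TZF10 had larger differences than TZF3 (-0.06). Whether any of these differences differ from each other was not tested. TZF7 (OXS2, AT2G41900), known from oxidative stress, was at 78.9, 115 and 138 CPM in hsl2 and 132, 136 and 123 CPM in wild type. TZF8 (AT5G12850) was at 47.8, 73.8 and 71.4 CPM in hsl2 and 73.8, 83.3 and 70.9 CPM in wild type. In each of them hsl2 1 was the lowest library and the others of both genotypes overlapped. TZF9 was at 8.82, 10.36 and 8.90 CPM in hsl2 and 10.42, 10.58 and 11.11 CPM in wild type. Its hsl2 libraries were thus all lower, by a narrow margin, as in 1 of the 5 and in 9.44% of all genes tested. Log2 fold changes were -0.24 for TZF7 and TZF8, -0.19 for TZF9 (AT5G58620), 0.03 for TZF10 (AT2G40140) and -0.23 for TZF11 (AT3G55980), the last pair known from salt stress. Their standard errors lay between 0.15 and 0.19. Of the 5, 0 passed with edgeR, 0 passed with DESeq2 and 0 had an unadjusted p under 0.05, with a median log2 fold change of -0.23 against 0.01 over all genes tested.

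Levels of different genes were compared per length, as CPM per kilobase of the longest annotated transcript. In hsl2 the order of means was TZF7 (36.6), TZF8 (22.4), TZF10 (10.9), TZF1 (10.2), TZF5 (4.22), TZF11 (4.19), TZF9 (3.63), TZF2 (2.58) and TZF3 (2.47). In wild type it was TZF7 (43.2), TZF1 (37.6), TZF8 (26.4), TZF10 (10.7), TZF5 (6.27), TZF11 (4.91), TZF9 (4.15), TZF2 (3.90) and TZF3 (2.59). TZF1 stood behind TZF7, TZF8 and TZF10 in the mutant and behind TZF7 alone in wild type. Its wild type libraries, at 36.6, 15.3 and 60.9 CPM per kilobase, overlapped those of TZF7 and of TZF8. In hsl2 they were at 9.31, 9.54 and 11.7 CPM per kilobase, overlapping TZF10 and lying above every TZF5 library. TZF5 overlapped TZF11, TZF11 overlapped TZF9 and TZF2 overlapped TZF3 in both genotypes. The overlap of TZF2 and TZF3 in wild type was marginal, with TZF2 at 2.8503 in wild type 2 and TZF3 at 2.8504 in wild type 3. TZF9 and TZF2 did not overlap in hsl2 but did in wild type.

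**Figure D3:**
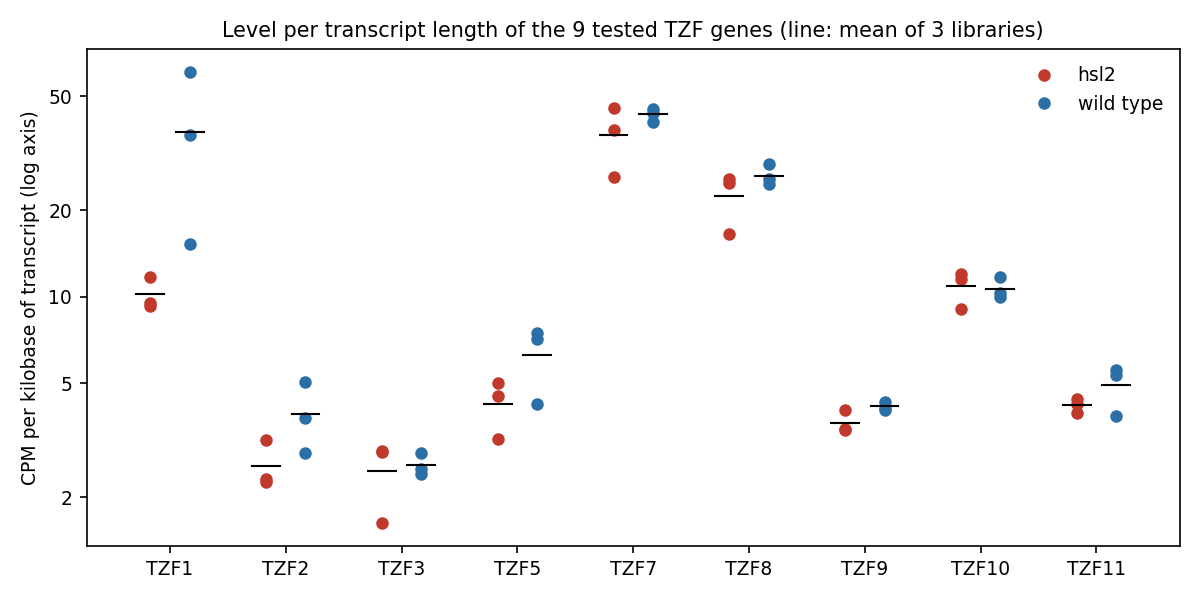
Level in CPM per kilobase of transcript, on a log axis, for the 9 TZF genes that were tested, with hsl2 left of wild type for each gene. Points are libraries and lines are means of 3: TZF1 averages 10.2 in hsl2 and 37.6 in wild type, while TZF7 averages 36.6 in hsl2 and 43.2 in wild type.

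TZF1 made up 59.0%, 49.8% and 55.6% of the family's counts (TZF1 to TZF6) in hsl2 libraries 1 to 3 and 74.5%, 63.9% and 81.1% in wild type libraries 1 to 3. The remaining 5 genes together were at 11.9, 17.6 and 17.2 CPM in hsl2 and 23.0, 15.9 and 26.0 CPM in wild type. Wild type 2 was low in TZF1, in TZF2 and in TZF5 alike, and wild type 3 was the highest library in all 3 of these genes.

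The start regions of 3 members are shown, chosen for their fold changes of -1.88 (TZF1), -0.57 (TZF5) and -0.06 (TZF3) on the log2 scale. Whether these fold changes differ from each other was not tested. Each runs from 250 bases before to 50 bases after the annotated start, from RefSeq's annotation of TAIR10.1, on the gene's strand. Capitals mark matches on either strand to the G-box CACGTG, the abscisic acid response core ACGTG, which lies within the G-box, the evening element core AATATCT or the sugar response motif TATCCA.

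TZF1, chr2:11041081-11041380, plus strand: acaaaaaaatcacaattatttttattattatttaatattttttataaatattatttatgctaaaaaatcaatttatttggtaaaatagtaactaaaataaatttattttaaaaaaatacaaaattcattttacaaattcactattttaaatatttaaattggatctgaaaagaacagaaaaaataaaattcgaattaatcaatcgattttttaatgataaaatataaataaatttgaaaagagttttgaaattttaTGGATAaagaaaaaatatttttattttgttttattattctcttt

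TZF3, chr4:14393332-14393631, minus strand: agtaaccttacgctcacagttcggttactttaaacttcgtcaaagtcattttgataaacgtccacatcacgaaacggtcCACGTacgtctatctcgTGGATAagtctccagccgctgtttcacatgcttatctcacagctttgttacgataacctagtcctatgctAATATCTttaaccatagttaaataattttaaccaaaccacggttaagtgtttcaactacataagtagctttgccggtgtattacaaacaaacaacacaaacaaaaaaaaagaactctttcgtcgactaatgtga

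TZF5, chr5:17831287-17831586, minus strand: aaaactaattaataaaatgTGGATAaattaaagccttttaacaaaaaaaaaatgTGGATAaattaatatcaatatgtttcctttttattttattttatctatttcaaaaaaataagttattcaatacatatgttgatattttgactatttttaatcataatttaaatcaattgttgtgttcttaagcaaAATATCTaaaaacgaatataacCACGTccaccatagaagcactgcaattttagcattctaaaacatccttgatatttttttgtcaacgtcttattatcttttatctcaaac

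TZF1 held 1 of the 4 motifs, a sugar motif 7 bases into the transcript. TZF3 and TZF5, whose log2 fold changes were -0.06 and -0.57, each held the abscisic acid core, the evening element core and the sugar motif. TZF2 held only the abscisic acid core, at 2 places. TZF6 held the evening element core and the sugar motif, TZF4 held 0 of the 4, and the G-box was in 0 of the 6 windows. Of 27443 start regions of the same length, 26.7% held the abscisic acid core, 11.5% the evening element core, 16.1% the sugar motif and 7.68% the G-box. A match is a string of letters and not a shown binding site. A and T made up 87.3% of the TZF1 start region, 62.3% of that of TZF3 and 78.3% of that of TZF5. The median over all 27443 was 68%, and only 1 of them, TZF1 itself, reached its share.

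The lists of genes around the family were chosen with results of these libraries known. Over all genes tested, 13.5% had an unadjusted p under 0.05 and 1.62% passed with DESeq2, and each list is to be read against these shares. Of 11 genes of processing bodies and of decay from the 5′ end, all tested, 9 had log2 fold changes below 0 and 2 above, with a median of -0.22. None passed with edgeR or DESeq2 (0 and 0 of 11), and 1 had an unadjusted p under 0.05. LSM1B, a subunit of the ring that promotes decapping, was at 38.1, 31.3 and 36.4 CPM in hsl2 and 29.1, 27.2 and 24.3 CPM in wild type, with its hsl2 libraries all higher, as in 11.3% of all genes tested. LSM1A was at 44.8 ± 6.87 CPM in hsl2 and 37.2 ± 1.67 CPM in wild type (SD, n = 3 each), also without overlap. XRN4, the exonuclease that degrades decapped RNA, was at 60.1 ± 10.5 CPM in hsl2 and 75.1 ± 5.18 CPM in wild type (SD, n = 3 each), a log2 fold change of -0.32 (standard error 0.15). Its hsl2 libraries were all lower. All hsl2 libraries were lower in 3 of the 11, against 9.44% of all genes tested, and higher in 2, against 11.3%.

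Of 6 genes of deadenylases, which shorten the poly(A) tail, 5 were tested, with a median of -0.18 and 0 passing with edgeR, 0 with DESeq2 and 0 at an unadjusted p under 0.05. The deadenylase gene CAF1B averaged 1.69 ± 0.451 CPM in hsl2 and 0.973 ± 0.334 CPM in wild type (SD, n = 3 each). All its hsl2 libraries were higher, but hsl2 2 (1.365 CPM, 27 counts) barely exceeded wild type 2 (1.354 CPM, 22 counts). All hsl2 libraries were higher in 1 of the 5 tested, against 11.3% of all genes, and lower in 1, against 9.44%. The scaffold gene NOT1 was at 81.6, 159 and 167 CPM in hsl2 and 181, 196 and 169 CPM in wild type, with hsl2 1 far below the rest. CCR4A had a log2 fold change of -0.26. Of 12 RNA-binding genes of stress granules, all tested, 7 were below 0 and 5 above, with a median of -0.02 and again 0 passing with edgeR, 0 with DESeq2 and 0 at an unadjusted p under 0.05. UBP1B, PAB4, which encodes a poly(A)-binding protein, and TSN1, which encodes a Tudor nuclease of stress granules, had log2 fold changes of -0.30, -0.31 and -0.21.

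Among 4 genes for reported partners of TZF proteins and for energy-sensing kinases, TOR had the smallest p. TOR encodes the growth kinase that senses nutrients, and it was at 37.6, 65.4 and 71.4 CPM in hsl2 and 95.9, 93.5 and 85.8 CPM in wild type. All hsl2 libraries were lower, as in 9.44% of all genes tested, and the log2 fold change was -0.66 (standard error 0.21). Its adjusted p was 0.292 in edgeR and 0.0927 in DESeq2. The partner genes MARD1 and RD21A had log2 fold changes of -0.24 and -0.07. None of the 4 passed with either tool (0 and 0), and 1 had an unadjusted p under 0.05.

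Of 9 gibberellin, abscisic acid and light regulators tied to TZF4, TZF5 and TZF6 in seeds, 8 were tested, with 7 below 0 and a median of -0.14. PIF1 (AT2G20180), the light-regulated factor that activates TZF4 in seeds, was at 0.854, 1.11 and 1.37 CPM in hsl2 and 3.44, 2.52 and 2.37 CPM in wild type. All hsl2 libraries lay below all wild type libraries, at a log2 fold change of -1.31 (standard error 0.32). Such separation was seen in 3 of the 8 tested, against 9.44% of all genes tested. The adjusted p of PIF1 was 0.192 in edgeR and 0.0566 in DESeq2. TZF4 itself had at most 4 counts in a library. The gibberellin receptor gene GID1A and the DELLA repressor gene RGA had log2 fold changes of -0.20 and -0.14. Of the 8, 0 passed with edgeR or DESeq2 and 1 had an unadjusted p under 0.05, near the 13.5% of all genes tested.

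Of 31 other genes described as CCCH proteins in the reference, 26 were tested, with 17 below 0, 9 above and a median of -0.10. Those with an unadjusted p under 0.05 numbered 5, against 13.5% of all genes tested, and 0 passed with edgeR or DESeq2. The hsl2 libraries lay below all wild type libraries in 7 of the 26, against 9.44% of all genes tested. AT2G47680 had the largest difference of the 26, at 7.76, 11.3 and 13.3 CPM in hsl2 and 22.5, 21.5 and 13.8 CPM in wild type, a log2 fold change of -0.83 (standard error 0.24). Its adjusted p was 0.250 in edgeR and 0.0558 in DESeq2. AT5G08450 and MAC5A, a gene of the spliceosome-associated MAC complex, had -0.43 and -0.38. TZF1, at -1.88, lay outside the range of these 26 genes, -0.83 to 0.31. Since its family was picked with this contrast known, nothing is read from that.

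**Figure D4:**
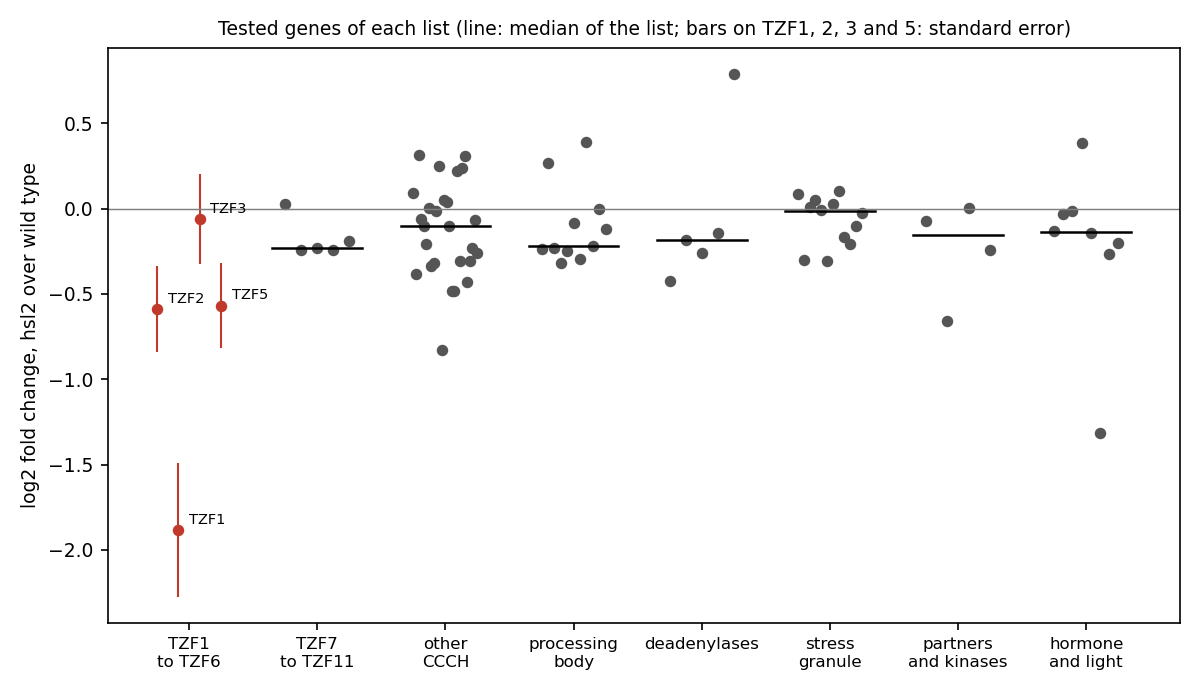
Log2 fold change of hsl2 over wild type for the tested genes of the family and of the 7 lists around it, 1 point per gene, with the median of each list other than TZF1 to TZF6 as a line and the standard error on TZF1, TZF2, TZF3 and TZF5. TZF1, at -1.88, is the lowest point shown, followed by PIF1 at -1.31 in the hormone and light list. The marker lists of root tip, root hair and green tissue are not plotted.

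The genes whose log2 CPM (edgeR, with its default prior count) over the 6 libraries was most like that of each tested member were picked by Pearson's r among 14219 genes with a mean of at least 5 CPM. For TZF1 they were AT2G17880, which encodes a DnaJ-domain protein (r = 0.991), MPK1 (r = 0.987) and CAO (r = 0.986), the gene of a chloroplast signal recognition particle component. AT2G17880 ranked the 6 libraries as TZF1 did. It was at 3.13, 3.34 and 3.73 CPM in hsl2 and 9.74, 3.88 and 15.4 CPM in wild type. CAO was at 5.84, 5.11 and 6.41 CPM in hsl2 and 11.8, 8.06 and 20.1 CPM in wild type. Wild type 2 was low in these genes too. This and the shared ranking come with picking genes by their likeness to TZF1 in these same libraries, so nothing is read from them.

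For TZF2 they were AT4G29950 (r = 0.991), LKP2 (r = 0.990), which encodes a blue-light F-box protein of the clock, and AT3G15070 (r = 0.987). For TZF5 they were the evening clock gene TOC1 (r = 0.990), AT3G17680 (r = 0.988) and AT1G34300 (r = 0.983). TOC1 was at 65.4, 71.8 and 75.4 CPM in hsl2 and 89.0, 70.5 and 87.2 CPM in wild type. For TZF3 they were AT4G02715 (r = 0.998), AT5G14550 (r = 0.995) and AT3G45850 (r = 0.994). These are the highest of 14218 or 14219 correlations per member over only 6 libraries. Those of TZF1, TZF2 and TZF5 carry the difference between genotypes. TZF3 and the genes most like it had log2 fold changes between -0.10 and -0.06, and all had hsl2 1 as their lowest library. Spearman's rho of the 12 pairs was at least 0.829. As many as 45, 30, 220 and 43 genes had an r over 0.95 with TZF1, TZF2, TZF3 and TZF5.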

How the data were processed

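RNA-seq of 6 root tip libraries was used. Trimmomatic 0.33, STAR 2.5.1b and featureCounts (no version) are named in the submitters' processing notes. The authors deposited raw counts of reads per gene, 1 file per sample. Per the labels' protocols the kit was stranded, but no source used here names the build, the annotation or the strand option behind the counts. TAIR10.1 coordinates and sequences belong to the reference, in which 37051 of the 37336 identifiers were found, and 0 entries named no gene.

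Groups came from the sample titles. Counts of all 6 libraries were filtered with filterByExpr, scaled by TMM and tested with edgeR 4.0.16 (quasi-likelihood F-test, R 4.3.3, genotype as the only term, Benjamini-Hochberg adjustment over 17989 genes, threshold 0.05). DESeq2 1.42.0 and limma-voom (limma 3.58.1) were alternatives. DESeq2 left the adjusted p of 698 genes undefined. CPM uses TMM library sizes, and standard errors derive from the F statistic. Gene calls were tested on simulated data. No pair of libraries was a duplicate. Nothing says that libraries came from separate cultures, so a p-value reflects only how far these libraries scatter, which may be technical.

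The members and lists were chosen with earlier results of these data known. Named genes were the 11 TZF genes, up to 3 genes of the smallest p in each other list, and the 3 most alike genes of each tested member. Limits from a count of 0 cover counting error only. Planned comparisons of protein sequences were not made.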

Additional observations from a re-analysis of the deposited data

How the results depend on the processing

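The 4 tested members kept the sign of their fold change under RLE and upper-quartile scaling, without the filter, with a filter of at least 1 CPM in 3 libraries, with DESeq2 and with limma-voom. The test against a fold change of 1.5 has the same fold changes as the main fit, so no sign could change there. TZF3 reversed without hsl2 1 (0.13), without wild type 3 (0.01) and without both (0.23), and the cause was not tested. With 1 library left out TZF3 lay between -0.19 and 0.13. TZF1 ranged from -2.26 to -1.30 over 15 alternatives, TZF2 from -0.77 to -0.27 and TZF5 from -0.78 to -0.28. TZF1 was called with no filter, with DESeq2, without wild type 2, without hsl2 1 and wild type 3 together, and with the replicate block, and in none of the other 10 alternatives.

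DESeq2 called 292 genes. The number called by edgeR, 0 with all 6 libraries, was 110 with no filter, 1316 without hsl2 1 and wild type 3, and between 0 and 58 when 1 library was left out (58 without wild type 3, 3 without wild type 2 and 1 without wild type 1). Hsl2 1 and wild type 3 were left out together because they stood apart in these same data. Nothing is therefore read from the 1316 genes or from the call of TZF1 in that setting. The number called by edgeR was 0 with a threshold of 0.01. With the replicate number as a block it was 52. Deviations of same-numbered libraries correlated at only 0.14, 0.06 and 0.02, so the numbers are not taken to pair the samples, although 5 of 6 libraries correlated best with their own number. The processing body median moved to -0.084 without hsl2 1 and wild type 3, and the stress granule median to -0.11. With 1 library left out these medians ran from -0.25 to -0.10 and from -0.12 to 0.010. Other medians shifted too, by less than the spread between libraries but by over 1.5 times: TZF7 to TZF11 to -0.091 without hsl2 1, deadenylases to -0.33 without wild type 3, -0.077 without wild type 2 and -0.091 without hsl2 1, partners and kinases to -0.054 without wild type 3 and -0.26 without wild type 2, hormone and light to -0.29 without hsl2 1, and other CCCH genes to -0.023 without wild type 3 and -0.17 without wild type 2. Without hsl2 1 and wild type 3 the partner median was 0.00027. Depth limits TZF4 and TZF6, with at most 4 counts in a library.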

Other observations

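The genes next to TZF1 in the reference were read as well. AUR2 (AT2G25880), an Aurora kinase gene whose annotated span ends nearest upstream of TZF1, was at 28.8, 19.8 and 18.4 CPM in hsl2 and 27.5, 23.0 and 21.9 CPM in wild type, a log2 fold change of -0.12 (standard error 0.19). AT2G25905, the nearest downstream, had 0 counts in all 6 libraries. These genes were chosen after their values were seen.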
